A study of Rattus norvegicus with 138 samples.

Results

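Serum levels of 4 microRNAs (miRNAs) known from inflammation, miR-21-5p, miR-146a-5p, miR-146b-5p and miR-155-5p, were followed in rats carrying metal pellets in muscle. They were taken by name from a table of 471 rat miRNAs counted in serum libraries (36, 36, 34 and 32 libraries 1, 3, 6 and 12 mo after implantation). The 4 names were found in the table once each. Their levels differed between the time points after implantation, where time since surgery and age of the rats cannot be told apart. The median of miR-21-5p was highest at 3 mo, miR-146a-5p and miR-146b-5p were lower at 3 mo than at 1 mo, and miR-155-5p was near the limit of detection, with counts in 62 libraries. By edgeR, no difference between a metal and the control metal tantalum was called for any of the 4 miRNAs.

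A miRNA guides a protein complex to messenger RNAs that pair with its seed, the stretch near its 5′ end, and lowers their output. miR-21 is induced by the transcription factors AP-1 and STAT3 in many cell types and is known from inflammation, wound repair and fibrosis. miR-146a and miR-146b are induced by NF-κB and feed back on Toll-like receptor signalling through the adaptors TRAF6 and IRAK1, while miR-155 is induced in activated macrophages and lymphocytes, where it favours the inflammatory response. In serum these miRNAs travel inside vesicles or bound to proteins, so a serum level reflects release from many tissues. More releasing cells, more release per cell and slower loss from the blood cannot be told apart in such samples.

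The mature sequences are shown because the seed sets which targets a miRNA can share with another, and because the likeness of miR-146a-5p and miR-146b-5p bears on how their reads can be told apart. They are RefSeq sequences of the rat assembly GRCr8, written 5′ to 3′ with the seed, bases 2 to 8, in capitals.
miR-21-5p: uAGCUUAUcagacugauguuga
miR-146a-5p: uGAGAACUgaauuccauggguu
miR-146b-5p: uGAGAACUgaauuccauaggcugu
miR-155-5p: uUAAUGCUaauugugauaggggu

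In GRCr8, miR-21-5p lies at chr10:71902653-71902674 on the minus strand within the Mir21 hairpin, and miR-146a-5p at chr10:28350053-28350074 on the minus strand within Mir146a. miR-146b-5p lies at chr1:255144874-255144897 on the plus strand within Mir146b, and miR-155-5p at chr11:37261117-37261139 on the plus strand within Mir155. Each of the 4 miRNAs is thus cut from a hairpin gene of its own. miR-146a-5p and miR-146b-5p share the seed GAGAACU and are identical over their first 17 bases. They differ by G18A and U21C, with the base of miR-146a-5p given first and positions counted from 1 at the 5′ end, and miR-146b-5p is 2 bases longer at its 3′ end (24 against 22 bases). Reads that stop short of those positions could have been counted under either name, and how the authors assigned them is not given in the sources used here. miR-21-5p and miR-155-5p each share their seed with 0 other mature rat miRNAs in the RefSeq table.

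The rats were male Sprague-Dawley animals, 3 mo old at surgery, with 8 rats per group by the series text. Each rat received 4 pellets, 2 in each gastrocnemius muscle, every pellet a cylinder 1 mm across and 2 mm long. The pellets were of depleted uranium (DU), lead (Pb), tungsten (W), cobalt (Co), nickel (Ni), copper (Cu), iron (Fe) or aluminium (Al), set against tantalum (Ta), an inert metal that served as the surgical control. Serum was sampled 1, 3, 6 and 12 mo after implantation, giving 35 groups of 4 libraries, except W and Ta at 6 mo with 3 libraries each and no Ni group at 12 mo. The control rats therefore also carried pellets and had the same surgery, and no group of rats without pellets was analysed here. The labels do not say which rats the libraries of a group came from, or whether the same rats were sampled again at later times, so p-values measure the spread between samples. All rats had surgery at the same age. Time after implantation, age and any handling shared within a time point therefore cannot be told apart.

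Levels are given as CPM (counts-per-million), with the total of each library scaled by its TMM factor, which corrects for a few abundant miRNAs taking up the counts of a library. TMM factors ran from 0.38 to 2.44 over the libraries, with medians of 0.812, 1.4, 0.918 and 0.939 in the order of the time points. A miRNA is called when its p from edgeR's quasi-likelihood test, adjusted by Benjamini and Hochberg over all miRNAs tested in that comparison, is under 0.05.

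Library totals ran from 518 to 6406599 counts, with medians of 1114449, 286094, 1302182.5 and 558752.5 counts 1, 3, 6 and 12 mo after implantation. The number of miRNAs with a count in a library had medians of 216, 99.5, 170 and 186.5 at these times. Libraries that held fewer than 20000 counts numbered 6 and are called near-empty below: replicate 3 of Ni, Al and Ta and replicate 4 of DU at 3 mo, replicate 1 of Co at 1 mo and replicate 3 of W at 12 mo. As a check of the sample type, summed levels of marker miRNAs were taken over the other 132 libraries. The erythrocyte markers had medians of 3820, 4520, 4140 and 3060 CPM at 1, 3, 6 and 12 mo, the leukocyte markers 9620, 8780, 7100 and 5710, and the liver markers 67700, 71800, 89300 and 216000. The skeletal muscle markers had medians of 420, 2070, 1450 and 933 and reached 30300 in single libraries, with 0 in the lowest libraries at 3 and 6 mo. The endothelial markers had medians of 1730, 953, 1160 and 1340. Their part in the results was not tested.

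miR-21-5p, miR-146a-5p and miR-146b-5p were among the more abundant miRNAs of the table. Over all libraries miR-21-5p took 402567 counts (0.276% of all counts, rank 37 of 471), miR-146a-5p 810375 (0.556%, rank 23) and miR-146b-5p 565806 (0.388%, rank 31). miR-155-5p took only 4095 counts (0.00281%, rank 159). A miRNA read covers the whole molecule, so these counts need no scaling by length. The guide arms far outnumbered the passenger arms cut from the same hairpins: miR-21-3p had 284 counts in 19 libraries, miR-146a-3p 298 counts in 2 libraries and miR-146b-3p 194 counts in 17 libraries, or 1417, 2719 and 2917 guide counts per passenger count. The passenger arm miR-155-3p was not analysed here.

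**Figure D1:**
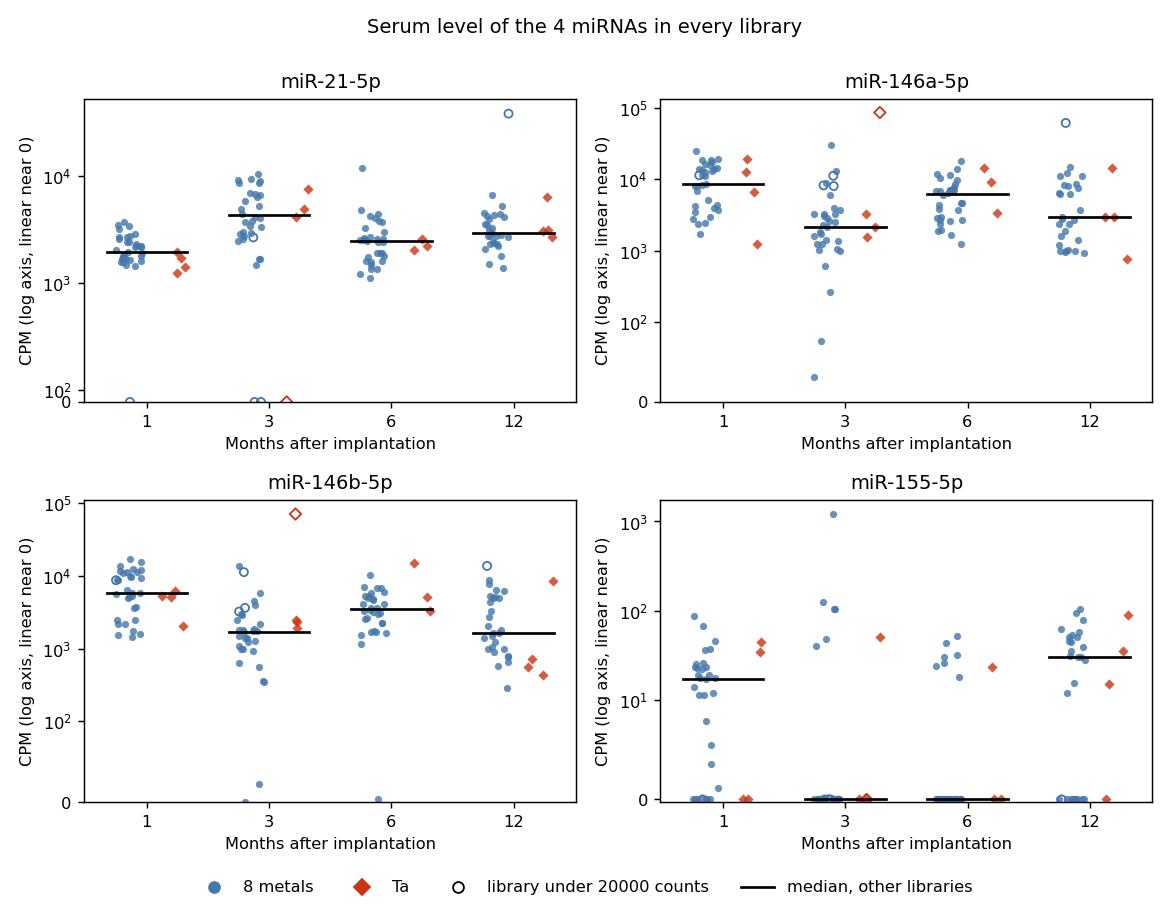
Serum level of each miRNA (CPM, log axis that is linear near 0) in every library, by months after implantation, with libraries of the 8 metals as circles, Ta as diamonds, near-empty libraries as open symbols and the median of the other libraries as a bar. The bar of miR-21-5p is highest at 3 mo (4313 CPM), those of miR-146a-5p and miR-146b-5p are high at 1 mo (8711 and 5742 CPM) and lower at 3 mo (2157 and 1711 CPM), and that of miR-155-5p is at 0 at 3 and 6 mo.

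miR-21-5p, the inflammation and repair miRNA, was about 2-fold higher at 3 mo than at 1 mo across the metals and lower again at 6 mo. Over the 132 libraries that were not near-empty it ran from 1256 to 3743 CPM at 1 mo (median 1954, n = 35), from 1485 to 10490 at 3 mo (median 4313, n = 32), from 1119 to 12030 at 6 mo (median 2460, n = 34) and from 1388 to 6686 at 12 mo (median 2926, n = 31). The ranges of all 4 time points overlapped, and the median at 3 mo stood above the highest library at 1 mo. With no scaling at all, miR-21-5p made up 1940, 5130, 2180 and 3380 CPM of the summed counts 1, 3, 6 and 12 mo after implantation, which is the same order. The group median was higher at 3 mo than at 1 mo in 9 of 9 metals, lower at 6 mo than at 3 mo in 9 of 9, and higher at 12 mo than at 6 mo in 8 of 8.

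For changes with time, the 8 metals with a group at every time point (all but Ni, and including Ta) counted equally, and 320 miRNAs were tested. Many miRNAs moved with time: 43.8% of those tested were called between 3 and 1 mo (26 higher and 114 lower at 3 mo), 18.8% between 6 and 3 mo (41 higher and 19 lower at 6 mo), 9.06% between 12 and 6 mo (25 and 4) and 11.6% between 12 and 1 mo (15 and 22). Of the 4 inflammation miRNAs, 3 were called between 3 and 1 mo, 1 between 6 and 3 mo, 1 between 12 and 6 mo and 2 between 12 and 1 mo. Against that background a call for a single miRNA between 3 and 1 mo was common. DESeq2 called more, between 20% and 54.7% of all miRNAs over these 4 comparisons. In the same comparisons within Ta alone DESeq2 called between 5.62% and 19.1%.

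miR-21-5p rose between 1 and 3 mo by 1.13 ± 0.27 on the log2 scale (SE; adjusted p = 0.0002296, edgeR), while the median miRNA fell by 1.62 on the log2 scale. That median takes in miRNAs near the limit of detection. Libraries at 3 mo had a median of 99.5 miRNAs with a count, against 216 at 1 mo. After thinning every library to the same depth, 70000 counts, miR-21-5p rose by 1.43 on the log2 scale (adjusted p = 3.18e-11, edgeR). It stood 2.17 above the median miRNA there, so that median fell by less than 1.62. The thinned fit also left out the near-empty libraries, and the part of depth alone was not tested. Between 3 and 6 mo miR-21-5p fell by 0.78 ± 0.28 on the log2 scale (adjusted p = 0.0338), where the median miRNA was higher by 0.696. At 12 mo it was higher than at 1 mo by 0.87 ± 0.27 (adjusted p = 0.01856), against a median of -0.261 over all miRNAs, and the difference between 12 and 6 mo was not called by edgeR (0.52 ± 0.27, adjusted p = 0.3714) but was by DESeq2 (0.63, adjusted p = 0.01373). Relative to the median miRNA the difference between 3 and 1 mo was 2.75, and under other scalings and filters it ran from 2.17, after thinning every library to 70000 counts, to 3.26. Leaving out replicate 3 of W at 12 mo ended the call between 12 and 1 mo (0.63, adjusted p = 0.09604), as did leaving out all 6 near-empty libraries (0.49, adjusted p = 0.06786). Leaving out replicate 2 of W at 6 mo ended that between 6 and 3 mo (adjusted p = 0.05154), whereas without the near-empty libraries that fall was larger (-0.94, adjusted p = 0.0001096). Without a filter on low counts neither was called (-0.83 between 6 and 3 mo, adjusted p = 0.2127, and 0.91 between 12 and 1 mo, adjusted p = 0.1245, edgeR).

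In Ta alone, the control metal, miR-21-5p moved the same way, by 1.47 ± 0.77 between 3 and 1 mo and -0.93 ± 0.84 between 6 and 3 mo, with n = 3 or 4 libraries per time point and neither called (adjusted p = 0.3053 and 0.7237, edgeR). The first of these was called by DESeq2 (1.915, adjusted p = 0.01176) and by edgeR after thinning (1.89, adjusted p = 0.01399). Its 4 Ta libraries had 1256, 1725, 1954 and 1405 CPM at 1 mo and 5000, 7626, 0 and 4136 at 3 mo, where the 0 is the near-empty library of 1645 counts. They had 2613, 2231 and 2037 CPM at 6 mo and 3167, 6356, 3051 and 2737 at 12 mo. Every Ta library at 12 mo thus lay above every Ta library at 1 and at 6 mo. The libraries at 3 mo lay above all those at 1 mo in Ni, Co, Cu and Pb. Overlap of groups, here and below, was not counted over all miRNAs and is a description only.

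Single markers of other cells were called in the same steps, in both directions. The leukocyte miRNA miR-223-3p, abundant in neutrophils, rose by 2.75 ± 0.41 on the log2 scale between 1 and 3 mo (adjusted p = 2.512e-08, edgeR) and fell by 1.85 ± 0.41 on the log2 scale between 3 and 6 mo (adjusted p = 0.0002137). The erythrocyte miRNA miR-451-5p rose by 1.97 ± 0.36 (adjusted p = 3.467e-06) and fell by 1.07 ± 0.37 on the log2 scale (adjusted p = 0.0243) in those steps. The lymphocyte miRNA miR-342-3p did the reverse, at -1.97 ± 0.39 (adjusted p = 1.101e-05) and 1.94 ± 0.39 (adjusted p = 5.704e-05). Of the 5 leukocyte markers 1 was called higher and 1 lower at 3 mo than at 1 mo (1 estimate positive and 4 negative), and of the 4 erythrocyte markers 1 higher and 1 lower (1 positive and 3 negative). Of the 4 skeletal muscle markers 2 were called higher at 3 mo than at 1 mo, miR-1-3p by 2.76 ± 0.73 on the log2 scale (adjusted p = 0.00081, edgeR) and miR-206-3p by 1.86 ± 0.53 (adjusted p = 0.002001), and the other 2 estimates were negative. Of the 3 liver markers miR-122-5p (adjusted p = 0.0006386) and miR-194-5p (adjusted p = 0.0003049) were called higher and miR-192-5p lower (adjusted p = 0.006683). At 12 mo the liver miRNA miR-122-5p was higher than at 1 mo by 2.53 ± 0.31 on the log2 scale (adjusted p = 1.007e-10, edgeR). The part of these cells and tissues in the levels of miR-21-5p was not tested.

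**Figure D2:**
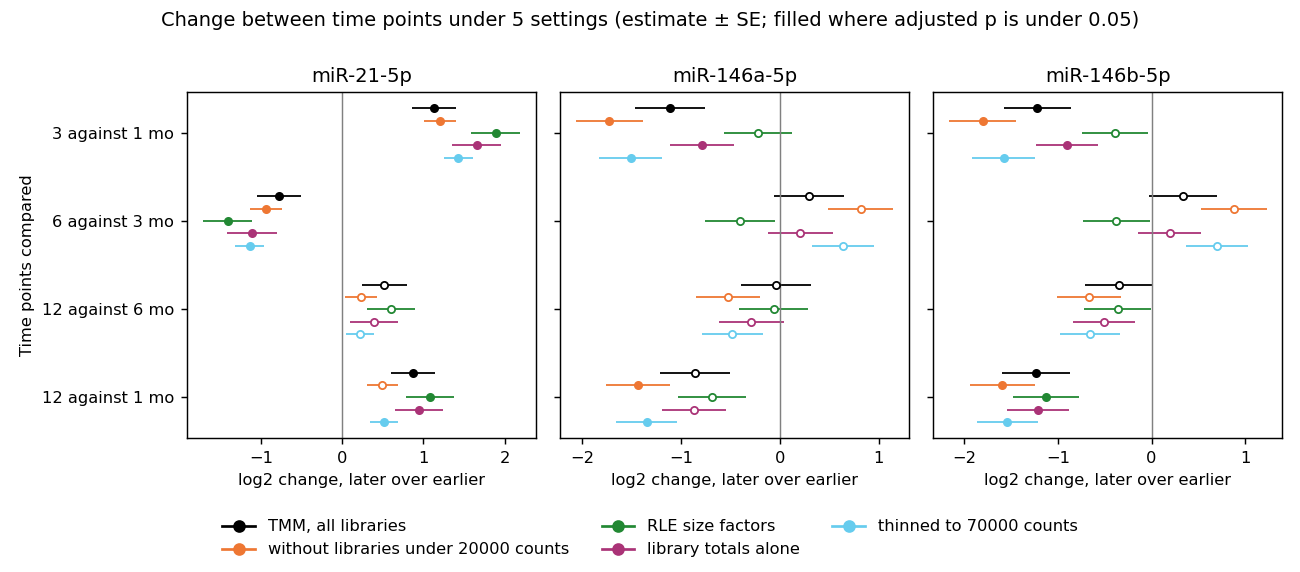
Log2 change of 3 miRNAs between time points (later over earlier, estimate ± SE over the 8 metals sampled throughout) under 5 settings, filled where the adjusted p is under 0.05. miR-21-5p lies right of 0 between 3 and 1 mo and left of 0 between 6 and 3 mo under all 5, whereas miR-146a-5p and miR-146b-5p move towards 0 between 3 and 1 mo with RLE size factors (-0.22 and -0.39).

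Across metals the levels of miR-21-5p lay close together, and no difference from Ta was called by edgeR. At 1 mo its group medians were 3051 CPM in DU (2169 to 3490), 2533 in Fe (1726 to 3743), 2393 in Co (0 to 2868), 2118 in W (1620 to 3199) and 2008 in Ni (1498 to 2444). Al had 1934 (1784 to 2184), Cu 1686 (1570 to 2603) and Pb 1614 (1461 to 2233), against 1565 in Ta (1256 to 1954). The 8 metals all had medians above that of Ta at 1 mo, but each of the 8 pairs of neighbours in this order overlapped, and only DU did not overlap with Ta in all libraries. Co overlapped only through its near-empty library, and its other 3 libraries (2035, 2868 and 2751 CPM) also lay above the highest Ta library (1954 CPM). The DU libraries had 2697, 2169, 3405 and 3490 CPM there, against 1256, 1725, 1954 and 1405 CPM in the Ta libraries. How often groups of other miRNAs fail to overlap with Ta was not counted.

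At 3 mo the order was different and the spread wider. The medians of miR-21-5p were 8104 CPM in Co (2969 to 10490), 6644 in Pb (5828 to 9295), 5384 in W (2467 to 8603), 3703 in Cu (2916 to 5231) and 3421 in Ni (2686 to 4209). Fe had 3306 (1485 to 8611), DU 3199 (0 to 9151) and Al 2544 (0 to 3464), against 4568 in Ta (0 to 7626). Co, Pb and W stood above the Ta median and the other 5 metals below it, and with all libraries every metal overlapped with Ta and all neighbours overlapped. The zeros in Al, DU and Ta are near-empty libraries. Without these the 3 Al libraries (1696, 3392 and 3464 CPM) lay below the 3 Ta libraries (5000, 7626 and 4136 CPM), and the other 7 metals overlapped with Ta.

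At 6 mo miR-21-5p had medians of 3123 CPM in Ni (1799 to 4415), 3025 in W (1363 to 4109), 2617 in Fe (1621 to 4890), 2561 in Cu (1772 to 2731) and 2505 in Al (1209 to 4220). Co had 2238 (1629 to 2616), DU 1952 (1348 to 3800) and Pb 1753 (1119 to 12030), against 2231 in Ta (2037 to 2613). The highest value belonged to replicate 2 of Pb, whose other 3 libraries had 1573, 1932 and 1119 CPM. The order ran within a 1.78-fold range of medians, and all metals overlapped with Ta.

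At 12 mo the medians of miR-21-5p were 4276 CPM in Co (3128 to 5232), 3825 in Al (1792 to 6686), 3252 in Cu (2248 to 4435), 3187 in Pb (1524 to 4237) and 3127 in W (2752 to 38690). Fe had 2627 (2097 to 2926) and DU 2338 (1388 to 2732), against 3109 in Ta (2737 to 6356). The W library at 38690 CPM is near-empty, with 136 miR-21-5p counts of 3789. DU did not overlap with Ta: its libraries had 2331, 2344, 2732 and 1388 CPM, against 3167, 6356, 3051 and 2737 CPM in Ta. The highest DU library was just below the lowest Ta library, and DU had been above Ta at 1 mo.

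When each metal was set against Ta within a time point, in 31 comparisons, edgeR called none of the 4 miRNAs, and 7 of the 124 tests had an unadjusted p under 0.05. Over all miRNAs the share with an unadjusted p under 0.05 ran from 1.47% to 25.7% over the 31 comparisons (median 9.26%). Few miRNAs of any kind were called in them: 0.37% of the 270 tested in Fe and in Pb at 1 mo, 1.2% of 167 in Co at 3 mo, 2.94% of 272 in Pb at 6 mo, 0.446% of 224 in W and in DU at 12 mo, and 0% in the others. DESeq2 called 10, all of them miR-146a-5p or miR-146b-5p at 3 mo, and these are given with that pair, while the share of all miRNAs it called ran from 0.741% to 19.9% over the 31 comparisons. For miR-21-5p no comparison had an unadjusted p under 0.05, and its smallest was that of DU at 12 mo, with a log2 difference of -1.09 (adjusted p = 0.3549, edgeR). Without the near-empty libraries DU at 1 mo had the smallest, with a log2 difference of 0.94 ± 0.32 (adjusted p = 0.1753), and Fe at 1 mo followed with 0.75 ± 0.32 (adjusted p = 0.5355). With all libraries miR-21-5p in W at 12 mo had a log2 difference of 1.00 (adjusted p = 0.5812). When any of 11 other libraries at 12 mo was left out, edgeR called it with a log2 difference between 2.72 and 3.09 (adjusted p from 0.03292 to 0.03731). Without the near-empty W library that difference was -0.06. In 1 further such fit miR-146b-5p was called in W (3.89, adjusted p = 0.04695), against 0.005 with all libraries and -1.08 without the near-empty library. The fits that left out a library at 12 mo also passed more miRNAs through the low-count filter, 235 to 242 against 224 with all libraries. The part of that change in these calls was not tested.

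Averaged over the time points, edgeR called no difference from Ta in miR-21-5p. Its 8 log2 differences lay between -0.11 and 0.69, with 5 positive, and the smallest p was that of W (0.69 ± 0.40, adjusted p = 0.5805, edgeR). Over all miRNAs, 0.312% were called in Fe and in Cu, 4.38% in Pb, 3.75% in DU and 0% in the other metals in these averages. DESeq2 called miR-21-5p in W (1.07 ± 0.31, adjusted p = 0.005193), where it called 14.7% of all miRNAs. Without the near-empty W library at 12 mo the edgeR difference was 0.20. DESeq2 was not run on these averages without that library. Nor was a change with time of the difference from Ta called for miR-21-5p by edgeR's F test, with the smallest p in DU (adjusted p = 0.917) among the 8 metals, while DESeq2 called it in W (adjusted p = 0.0254). In that test edgeR called 1.25% of all miRNAs in W and in Cu, 0.625% in Ni and in Fe, 2.19% in Co and in DU, 0.938% in Al and 4.06% in Pb. DESeq2 called between 1.25% and 4.38% over the 8 metals.

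The miR-146 pair, the NF-κB feedback miRNAs, fell between 1 and 3 mo, where miR-21-5p rose, and only miR-146b-5p was called lower at 12 mo than at 1 mo. miR-146a-5p ran from 1240 to 24690 CPM at 1 mo (median 8711), from 30.7 to 29830 at 3 mo (median 2157), from 1230 to 18180 at 6 mo (median 6287) and from 779.6 to 15020 at 12 mo (median 2946). miR-146b-5p ran from 1440 to 17070 CPM at 1 mo (median 5742), from 0 to 13540 at 3 mo (median 1711), from 3.858 to 15000 at 6 mo (median 3456) and from 291 to 8645 at 12 mo (median 1610). These are the 132 libraries that were not near-empty, and their ranges overlapped widely between all time points. The group medians of both were lower at 3 mo than at 1 mo in 9 of 9 metals and lower at 12 mo than at 1 mo in 8 of 8, and higher at 6 mo than at 3 mo in 8 of 9 metals, with DU the exception for both.

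miR-146b-5p fell between 1 and 3 mo by 1.22 ± 0.36 on the log2 scale (adjusted p = 0.002704, edgeR) and miR-146a-5p by 1.11 ± 0.35 (adjusted p = 0.005656). Both falls were smaller than that of the median miRNA, from which they differed by 0.40 and 0.51 upwards, and the sign of that relative difference depended on the setting: after thinning to 70000 counts it was -0.83 and -0.76. The calls were lost with RLE size factors, at -0.39 for miR-146b-5p (adjusted p = 0.5176) and -0.22 for miR-146a-5p (adjusted p = 0.9163), and with DESeq2, at -0.69 (adjusted p = 0.05845) and -0.59 (adjusted p = 0.1204). Without the near-empty libraries the falls were larger and called with every scaling run, at -1.80 for miR-146b-5p (adjusted p = 1.395e-05) and -1.73 for miR-146a-5p (adjusted p = 1.128e-05) with TMM, and at -1.81 (adjusted p = 6.583e-06) and -1.74 (adjusted p = 4.858e-06) with RLE size factors. At 12 mo miR-146b-5p was lower than at 1 mo, with a log2 difference of -1.23 ± 0.36 (adjusted p = 0.01036), while miR-146a-5p missed the threshold at -0.86 ± 0.35 (adjusted p = 0.09409). Without all 6 near-empty libraries miR-146a-5p passed it (-1.44 ± 0.33, adjusted p = 0.001003), as it did when replicate 3 of W or replicate 1 of Ta at 12 mo was left out. The step between 3 and 6 mo was not called for either (0.34 for miR-146b-5p and 0.29 for miR-146a-5p), and its sign was the opposite with RLE size factors (-0.38 and -0.40). Without the near-empty libraries this step was called for miR-146a-5p with RLE size factors (0.85, adjusted p = 0.04493, edgeR) and by DESeq2 (0.67, adjusted p = 0.04375). The step between 6 and 12 mo was not called for either by edgeR (-0.35 and -0.04), and without the near-empty libraries DESeq2 called both lower at 12 mo (-0.77 for miR-146b-5p, adjusted p = 0.02798, and -0.69 for miR-146a-5p, adjusted p = 0.04327).

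In Ta alone the fitted change of the pair between 3 and 1 mo had the opposite sign, at 2.005 ± 1.04 for miR-146b-5p and 1.18 ± 1.01 for miR-146a-5p, neither called (adjusted p = 0.2996 and 0.5118, edgeR), although DESeq2 called miR-146b-5p (2.79, adjusted p = 0.01585). The 4 Ta libraries had 2451, 2329, 70550 and 1887 CPM of miR-146b-5p at 3 mo and 2072, 5254, 5066 and 6225 CPM at 1 mo. For miR-146a-5p they had 2147, 1578, 86100 and 3316 CPM at 3 mo and 1240, 12800, 6673 and 19230 CPM at 1 mo. The values of 70550 and 86100 CPM are 59 and 72 counts in the near-empty library of 1645 counts, and the other 3 Ta libraries at 3 mo stood far below it. Without the 6 near-empty libraries the changes in Ta were -1.13 ± 1.04 and -2.16 ± 1.03 (adjusted p = 0.6102 and 0.2999).

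Across metals at 1 mo, miR-146a-5p had medians of 16190 CPM in Cu (4232 to 24690), 11140 in Al (2393 to 19130), 11000 in Fe (4339 to 14110), 10060 in Co (8148 to 17430) and 9713 in DU (3710 to 14370). Ni had 9096 (3495 to 13020), Pb 8972 (1709 to 16030) and W 2868 (2416 to 16580), against 9735 in Ta (1240 to 19230). The W median was the lowest because 3 of its libraries had 2978, 2416 and 2757 CPM and only replicate 4 reached 16580, and all metals overlapped with Ta. miR-146b-5p had medians of 10800 CPM in Cu (2462 to 15630), 10440 in Pb (5038 to 17070), 10380 in DU (6441 to 11950), 7214 in Co (3713 to 11430) and 5619 in Al (2140 to 11600). Ni had 5076 (1542 to 5823), Fe 4650 (1724 to 13810) and W 1876 (1440 to 8750), against 5160 in Ta (2072 to 6225). Both miRNAs were thus highest in Cu and lowest in W, and only DU did not overlap with Ta in miR-146b-5p, at 11250, 9504, 11950 and 6441 CPM in DU against 2072, 5254, 5066 and 6225 in Ta.

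At 3 mo the medians of miR-146a-5p were 4833 CPM in Al (30.7 to 8906), 4262 in DU (1075 to 11220), 3581 in Cu (2271 to 29830), 2524 in W (1634 to 3281) and 2230 in Pb (1246 to 3061). Fe had 2022 (76.65 to 13280), Ni 1351 (618.4 to 8058) and Co 1325 (1032 to 3227), against 2731 in Ta (1578 to 86100). Al spanned a 290-fold range between its libraries, the widest of the 35 groups for this miRNA when near-empty libraries are left out, and every metal overlapped with Ta. miR-146b-5p had medians of 3652 CPM in DU (1808 to 11220), 2506 in Al (23.02 to 5766), 1931 in Pb (556.8 to 2939), 1624 in Cu (0 to 13540) and 1596 in Fe (623.8 to 3941). W had 1461 (360.7 to 1827), Ni 1168 (917.3 to 3223) and Co 995.7 (351.2 to 2454), against 2390 in Ta (1887 to 70550). With all libraries W alone did not overlap with Ta in miR-146b-5p, its highest library (1827 CPM) lying just under the lowest Ta library (1887 CPM). Ni overlapped only through its near-empty library, and its other 3 libraries (1268, 917.3 and 1068 CPM) lay below every Ta library.

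At 6 mo miR-146a-5p had medians of 10880 CPM in Pb (2677 to 18180), 8493 in Ni (6965 to 11810), 6856 in Al (1934 to 10450), 5247 in Cu (2896 to 8695) and 4983 in Co (1673 to 7189). DU had 4260 (3753 to 6769), W 2625 (1879 to 4642) and Fe 2522 (1230 to 11670), against 9172 in Ta (3415 to 14340). The median of 1 metal, Pb, stood above that of Ta and 7 stood below, with overlap throughout. miR-146b-5p had medians of 4847 CPM in Ni (4133 to 7091), 4831 in Cu (3241 to 6707), 4549 in Al (1678 to 6755), 4124 in Pb (1715 to 5328) and 3952 in Co (1673 to 10300). DU had 2611 (3.858 to 4105), W 2599 (2537 to 3043) and Fe 1890 (1171 to 2257), against 5075 in Ta (3278 to 15000). Ta had the highest median of miR-146b-5p here, and the libraries of W (2537, 3043 and 2599 CPM) and Fe (1526, 2257, 1171 and 2254 CPM) lay below all 3 Ta libraries (5075, 15000 and 3278 CPM).

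At 12 mo the medians of miR-146a-5p were 7775 CPM in DU (2951 to 12110), 7331 in Cu (2356 to 11150), 6246 in Al (999.7 to 15020) and 4541 in Fe (1020 to 8573). Pb had 2374 (939.1 to 6163), Co 1897 (989 to 2685) and W 1750 (965.5 to 61460), against 2961 in Ta (779.6 to 14300). miR-146b-5p had medians of 4645 CPM in Cu (892.3 to 6238), 4281 in DU (1660 to 6439), 4254 in Al (291 to 8645) and 3202 in Fe (655.4 to 5161). Pb had 1695 (976.4 to 2746), Co 1223 (578.4 to 2032) and W 1108 (802.2 to 13660), against 633.4 in Ta (426.2 to 8374). DU, Cu, Al and Fe made up the upper 4 groups of both miRNAs, but Ta ranked in the middle for miR-146a-5p and last for miR-146b-5p, and its replicate 1 was high in both (14300 and 8374 CPM). In each order of group medians all neighbours overlapped, except W and Fe at 6 mo in miR-146b-5p.

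Within time points edgeR called no difference from Ta in either miRNA. Those with an unadjusted p under 0.05 for miR-146b-5p were Pb at 1 mo, with a log2 difference of 1.35 ± 0.66 (adjusted p = 0.357, edgeR), W, Ni and Co at 3 mo, with -2.83 ± 1.40, -3.06 ± 1.41 and -2.95 ± 1.40 (adjusted p = 0.4367, 0.5294 and 0.1847), and Fe at 6 mo, with -2.01 ± 0.93 (adjusted p = 0.3817). For miR-146a-5p it was Ni at 3 mo, with -2.82 ± 1.33 (adjusted p = 0.5294). The 3 mo values depend on the near-empty Ta library. Without the near-empty libraries they were -0.66 in W, -0.86 in Ni and -0.68 in Co for miR-146b-5p and -0.93 in Ni for miR-146a-5p, and no comparison of either was called by edgeR. With all libraries DESeq2 called miR-146b-5p lower than Ta at 3 mo in W, Ni, Co, Fe, Al and Pb and miR-146a-5p in W, Ni, Co and Pb, with log2 differences from -4.70 to -3.82. The difference of Fe at 6 mo was -0.94 without replicate 2 of Ta.

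The mean of the 8 metals at 3 mo had a log2 difference from Ta of -2.34 ± 0.82 for miR-146b-5p (adjusted p = 0.09716, edgeR) and -1.94 ± 0.80 for miR-146a-5p (adjusted p = 0.214), neither called. Over all miRNAs the share called between the mean of the metals and Ta was 3.33%, 4.19%, 2.57% and 1.79% in the order of the time points, and none of the 4 miRNAs was among them. Both became calls in 34 of 36 fits that left out 1 library at 3 mo, and not in those without replicate 1 of Cu or replicate 3 of Ta. Without that Ta library the difference was -0.02 for miR-146b-5p and 0.55 for miR-146a-5p. In the 34 fits it ran from -3.43 to -2.88 for miR-146b-5p and from -3.01 to -2.47 for miR-146a-5p, whichever library was left out. The fits that left out a library also passed more miRNAs through the low-count filter, 173 to 179 against 167 with all libraries. The part of that change in the 34 calls was not tested. With all libraries both were also called with RLE size factors (-4.04, adjusted p = 4.766e-05, and -3.62, adjusted p = 0.0002304) and without a filter on low counts. Both were called with DESeq2 too, which called 3.68% to 7.14% of all miRNAs over the 4 time points. The erythrocyte markers miR-451-5p and miR-16-5p were called lower by edgeR in the mean of the metals at 3 mo. The median log2 difference was -3.15 over the 4 markers of that list, against -0.598 over all miRNAs. Averaged over time points, both miRNAs lay below Ta in 8 of 8 metals, from -1.48 to -0.22 for miR-146a-5p and from -1.42 to -0.26 for miR-146b-5p. The 8 comparisons share the Ta libraries, none was called by edgeR, and DESeq2 called both miRNAs in Co (adjusted p = 0.01053 and 0.04769). In that Co average DESeq2 called 24.4% of all miRNAs. The smallest p of miR-146a-5p was that of Co (-1.48 ± 0.51, adjusted p = 0.1189) and that of miR-146b-5p was W (-1.28 ± 0.53, adjusted p = 0.2902). Without the near-empty libraries 4 of 8 were above Ta and 4 of 8 below for each.

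**Figure D3:**
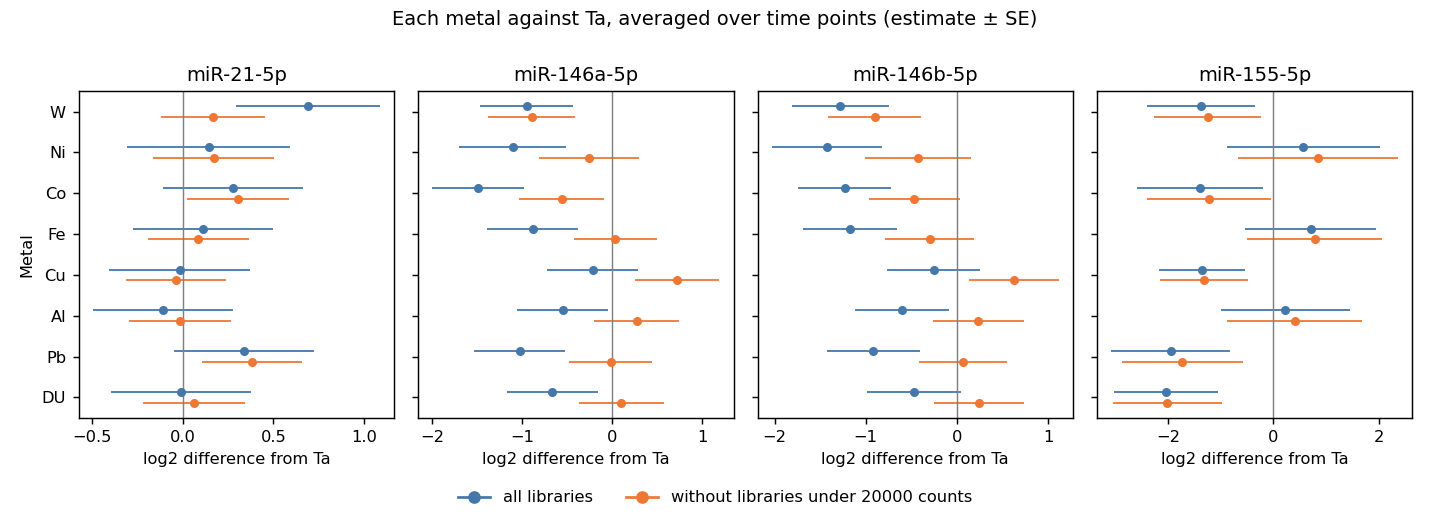
Log2 difference of each metal from Ta, averaged over its time points (estimate ± SE, edgeR), with all libraries in blue and without the 6 libraries under 20000 counts in orange. For miR-146a-5p and miR-146b-5p all 8 blue points lie left of 0 (lowest -1.48 and -1.42), and the orange points lie on either side of it.

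Other estimates with an unadjusted p under 0.05 in the averages were -1.42 ± 0.60 in Ni, -1.23 ± 0.51 in Co and -1.17 ± 0.51 in Fe for miR-146b-5p (adjusted p = 0.3474, 0.18 and 0.3395, edgeR) and -1.03 ± 0.51 in Pb for miR-146a-5p (adjusted p = 0.3364). Whether the difference from Ta changed with time gave an unadjusted p under 0.05 in 1 of 8 metals for miR-146a-5p, W (adjusted p = 0.2718). For miR-146b-5p it did so in 5 of 8, namely W, Ni, Co, Fe and Pb, with adjusted p from 0.1429 in Pb to 0.4862 in Ni. Over all miRNAs between 9.06% and 23.1% had an unadjusted p under 0.05 in the 8 tests of this kind. No such change was called by edgeR with TMM factors and all libraries. That of miR-146a-5p in W was called without replicate 2 of Ta at 3 mo (adjusted p = 0.03709), with RLE size factors, without a filter and with DESeq2, and that of miR-146b-5p in W with RLE size factors and with DESeq2. Without the near-empty libraries, by edgeR, the smallest adjusted p was 0.691 for miR-146a-5p and 0.569 for miR-146b-5p.

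The 2 miR-146 paralogues followed each other across libraries. Over the 132 libraries that were not near-empty, the Spearman correlation of their log2 CPM was 0.816, and within the 4 time points it was 0.762, 0.46, 0.652 and 0.824. These points share library and depth, and reads of the 2 near-identical sequences may have been counted under either name. The log2 ratio of miR-146a-5p to miR-146b-5p counts had a median of 0.559, and the miR-146a-5p count was the higher in 104 libraries. In 95 libraries (72%) the 2 counts lay within 2-fold of each other.

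**Figure D4:**
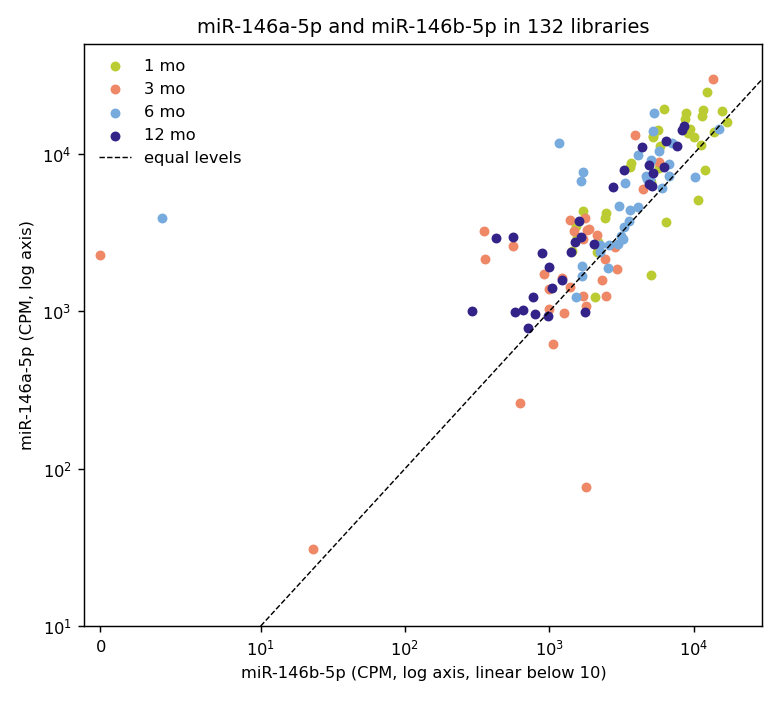
miR-146a-5p against miR-146b-5p (CPM, log axes, linear below 10 for miR-146b-5p) in the 132 libraries that were not near-empty, coloured by months after implantation, with a dashed line of equal levels. Most points lie along and slightly above the line, and a library of Cu at 3 mo and a library of DU at 6 mo lie far left of it, with 0 and 5 counts of miR-146b-5p.

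In 5 libraries the counts of the pair came apart by more than 8-fold. Replicate 3 of Cu at 3 mo had 586 counts of miR-146a-5p and 0 of miR-146b-5p in a total of 182862. Replicate 4 of DU at 6 mo had 5046 and 5 in a total of 1361752, where 3 other DU libraries had 11347, 15438 and 1738 counts of miR-146b-5p. Replicate 3 of Fe at 6 mo had 9559 and 959, replicate 3 of Co at 3 mo 726 and 79, and replicate 2 of Fe at 3 mo had the reverse, 34 and 796. In all 5 libraries miR-21-5p had between 668 and 4006 counts.

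Spread within a group differed between the miRNAs. Over the libraries that were not near-empty, and for miR-146b-5p without the Cu group at 3 mo that holds a 0, the ratio of the highest to the lowest library of a group had a median of 1.97 for miR-21-5p, 4.3 for miR-146a-5p and 3.95 for miR-146b-5p, and was over 5-fold in 2 of 35 groups for miR-21-5p, 16 of 35 for miR-146a-5p and 15 of 34 for miR-146b-5p. The median SD of log2 CPM within a group was 0.445 for miR-21-5p, 1.02 for miR-146a-5p and 0.908 for miR-146b-5p. The libraries of a group thus lay further apart for the miR-146 pair than for miR-21-5p.

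miR-155-5p, the miRNA of activated macrophages and lymphocytes, was at the edge of detection and was seen more often at 1 and 12 mo than at 3 and 6 mo. It had counts in 26 of 36, 7 of 36, 8 of 34 and 21 of 32 libraries 1, 3, 6 and 12 mo after implantation. After thinning each library to 70000 counts, which gives every library the same depth, the shares were 17 of 35, 7 of 32, 7 of 34 and 18 of 31. The median level was 17.43 CPM at 1 mo, 0 at 3 and 6 mo, and 30.75 at 12 mo, and the highest libraries had 87.04, 1216, 52.53 and 105.6 CPM. Of the summed counts of a time point, with no scaling, it made up 16.1, 95.3, 6.04 and 36.7 CPM. Of the 2260 counts at 3 mo 1086 came from replicate 4 of Fe, and without that library the value was 51.2 CPM.

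At 6 mo the 8 libraries with a count had 28 and 61 counts in W, 64 and 28 in Co, 40 in Ni, 27 in Fe, 73 in Al and 21 in Ta, and the other 26 had none. At 12 mo the counts in 21 libraries ran up to 97, with counts in all 4 Co libraries (88, 18, 31 and 42), in 3 of 4 Cu, W and Ta libraries and in 2 of 4 libraries of the other 4 metals. miR-155-5p rose between 6 and 12 mo (adjusted p = 0.0008434, edgeR), with a mean of 31.54 ± 31.22 CPM at 12 mo (SD, n = 32) and 7.396 ± 14.52 CPM at 6 mo (SD, n = 34). These means take all libraries, Ni at 6 mo among them, whereas the test compared only the 8 metals sampled throughout. The fitted log2 size is not given, because it depends on how the model treats groups of zeros. The call held after thinning (adjusted p = 0.004246) and when the near-empty libraries were dropped (adjusted p = 0.001513), and in every fit that omitted a single library (highest adjusted p = 0.004727). In Ta alone, with counts in 3 of 4 libraries at 12 mo and 1 of 3 at 6 mo, it was not called (adjusted p = 0.8783). The difference between 3 and 1 mo was not called by edgeR (adjusted p = 0.2566) and was called by DESeq2 as lower at 3 mo (adjusted p = 5.126e-05). DESeq2 also called it lower at 6 mo than at 3 mo (adjusted p = 0.0004385), where 8 of 34 and 7 of 36 libraries had a count. By edgeR that difference was not called (unadjusted p = 0.9996), with an SE of 3037 on the log2 scale. No difference was called between 12 and 1 mo (adjusted p = 0.656, edgeR).

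At 3 mo the few libraries with miR-155-5p had a great deal of it relative to the others. The 7 libraries had 1086 counts in Fe, 461 in Al, 235 in Ni, 208 in Cu, 75 in DU, 23 in Pb and 172 in Ta, with 1 library in each of these groups. Each was the deepest library of its group, with totals from 580423 to 4884425 counts, while the 29 libraries without a count had totals from 518 to 1411547. Their median was 208 counts, while the 26 libraries with a count at 1 mo had a median of 22 counts. The part of depth in this pattern was not tested.

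**Figure D5:**
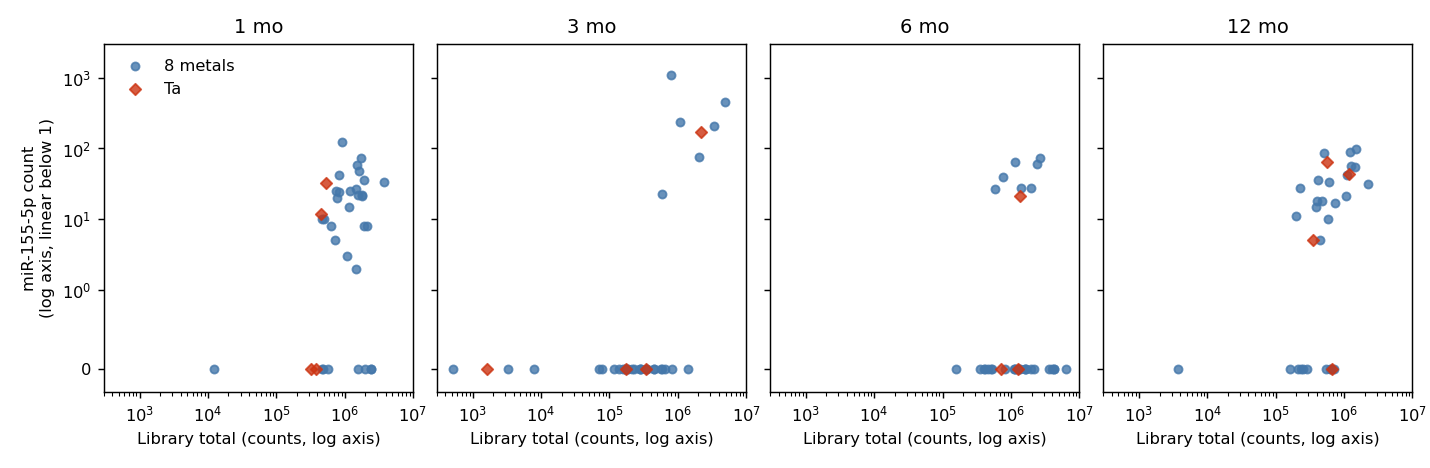
miR-155-5p count (log axis, linear below 1) against library total (counts, log axis) in every library at 1, 3, 6 and 12 mo, with the 8 metals as circles and Ta as diamonds. At 3 mo the 7 libraries with a count have 23 to 1086 counts and lie at the right, and the other 29 lie at 0.

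Across metals miR-155-5p had counts in 9 of 15 W libraries, 4 of 12 Ni, 9 of 16 Co, 8 of 16 Fe, 8 of 16 Cu, 7 of 16 Al, 5 of 16 Pb and 5 of 16 DU, against 7 of 15 Ta libraries. In 5 groups no library had a count. The groups of 0 allow up to 1.54 unscaled CPM in W and 4.57 in Co at 3 mo, and up to 0.26 in Cu, 1.73 in Pb and 0.246 in DU at 6 mo, taking 3 counts over the summed total of each group, for counting error only. Among its 31 comparisons with Ta within a time point 1 had an unadjusted p under 0.05, W at 3 mo, where W had 0 counts in 4 libraries and Ta 172 counts in 1 of 4 (adjusted p = 0.4371, edgeR). Without that Ta library, replicate 4, both groups were at 0. Averaged over time points, DU had the smallest p, with 2, 1, 0 and 2 libraries with a count at 1, 3, 6 and 12 mo in DU against 2, 1, 1 and 3 in Ta (adjusted p = 0.4478). Between the mean of the metals and Ta its smallest p was at 6 mo (adjusted p = 0.5448). DESeq2 called miR-155-5p lower than Ta in 5 of the 8 averages, those of W, Co, Cu, Pb and DU, with adjusted p from 0.001332 in DU to 0.02506 in W. It called between 11.6% (Cu) and 24.4% (Co) of all miRNAs in those 5. These are the same 5 metals that hold a group of 0. In Al, Fe and Ni, which hold none, the DESeq2 log2 differences were 0.41, 1.02 and 0.94, and none was called. The part of the groups of 0 in these calls was not tested.

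The pattern of a miRNA across libraries was compared with that of 159 miRNAs with counts in most of the 132 libraries, by Spearman correlation of log2 CPM. These are descriptions of libraries that share depth and composition. The miRNAs most like miR-21-5p were let-7i-5p (0.565), the neutrophil miRNA miR-223-3p (0.539) and let-7g-5p (0.535). Most like miR-146a-5p, after miR-146b-5p, were miR-183-5p (0.692) and miR-361-5p (0.69), and most like miR-146b-5p, after miR-146a-5p, were the abundant blood miRNA miR-191a-5p (0.747) and miR-361-5p (0.729). The lowest correlation of both miR-146 paralogues was with miR-223-3p (-0.657 for miR-146a-5p and -0.609 for miR-146b-5p), and that of miR-21-5p was with miR-351-3p (-0.607). miR-21-5p itself correlated with miR-146a-5p at -0.403 and with miR-146b-5p at -0.417. Within time points these ran -0.353, -0.149, 0.11 and -0.429 with miR-146a-5p and -0.254, 0.000367, 0.106 and -0.43 with miR-146b-5p, in the order of the time points, so they were weak at 3 and 6 mo. With the log2 library total miR-21-5p correlated at -0.206, miR-146a-5p at 0.227, miR-146b-5p at 0.389 and miR-155-5p at 0.2.

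A list of 20 further miRNAs known from inflammatory signalling was set beside them, of which 19 were in the table and 15 were tested over all libraries. Between 3 and 1 mo 1 of the 15 rose, miR-223-3p, and 2 fell, miR-27a-3p (-1.003 ± 0.37, adjusted p = 0.02047, edgeR) and miR-181c-5p (adjusted p = 0.0001666), with a median log2 change of -1 against -1.62 over all 320 miRNAs. Between 6 and 3 mo 1 fell, again miR-223-3p, between 12 and 6 mo none was called, and between 12 and 1 mo 1 fell, the T cell miRNA miR-181a-5p (-0.96 ± 0.33, adjusted p = 0.04104). Between each metal and Ta at 1 time point none of 350 tests of this list was called, and 30 had an unadjusted p under 0.05, for which the share over all miRNAs ran from 1.47% to 25.7% over the 31 comparisons. Between the mean of the metals and Ta, 2 of 12 tested were called lower at 1 mo, miR-9a-5p and miR-124-3p, where 3.33% of all miRNAs were called. At 6 mo it was 2 of 14, miR-124-3p and the passenger arm miR-21-3p, where 2.57% were. These calls may rest on few libraries: miR-21-3p had counts in 19 libraries in all. Between 3 and 1 mo the edgeR fits of miR-9a-5p and miR-124-3p had SEs of 237600 and 159900 on the log2 scale. Counts per library of these miRNAs are not given here. The neutrophil miRNA miR-223-3p was thus the only member of the list that was called both between 1 and 3 mo and between 3 and 6 mo, in the directions of miR-21-5p.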

How the data were processed

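Small RNA libraries were made from rat serum with a Norgen kit, checked on a Bioanalyzer and sequenced on a NextSeq instrument, per the labels' protocols. The deposited values are raw counts per mature miRNA and library, for 471 miRNAs in each library. The submitters' processing notes name the rat build Rnor_6.0, while for the aligner, the counting tool and the miRNA annotation the entry is "not given in the sources used here". Sequences and coordinates come from RefSeq tables of GRCr8, a different build, where 434 of the 471 names matched, and no coordinate of Rnor_6.0 is given.

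From the counts, edgeR 4.0.16 (R 4.3.3, limma 3.58.1) gave TMM factors and quasi-likelihood tests. Each time point was fitted with all its groups for single and pooled comparisons with Ta, and all libraries together for the averages, the time comparisons and the change with time. Low counts were filtered with filterByExpr (minimum count 10, minimum total 15), p-values were adjusted by Benjamini and Hochberg within each comparison, and the threshold was 0.05. SE is the absolute log2 difference divided by the square root of F. Log2 CPM for correlations used a prior count of 2, over the 132 libraries of at least 20000 counts. DESeq2 1.42.0 was an alternative, along with RLE size factors, no filter, a replicate block, leaving out near-empty libraries or each library in turn, thinning to 70000 counts, fits of only the compared groups, Ta alone, and adjustment over all 31 comparisons. Fits were tested on simulated data. Floors take 3 counts and cover counting error only, since reads without molecular identifiers are not independent molecules.

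The members are always named. A log2 difference is given where the unadjusted p is under 0.05 and for the smallest p of each miRNA in each kind of comparison, and other values named were chosen after they were seen. The members, the lists and this rule were chosen with earlier results of these data known.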

Additional observations from a re-analysis of the deposited data

Results flagged for a closer look

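Among 127 groups of 4 libraries with counts of a miRNA, 25 had a highest or lowest library far from the other 3 relative to the range of the group, 6 for miR-21-5p, 2 for miR-146a-5p, 5 for miR-146b-5p and 12 for miR-155-5p. For normally distributed values chance flags about 1 in 20 groups. That rate does not hold for miR-155-5p, since a group with a count in only 1 library is always flagged.

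Several of these were near-empty libraries. For miR-21-5p these were the low values of 0 CPM in Co at 1 mo (replicate 1) and in Al (replicate 3), DU (replicate 4) and Ta (replicate 3) at 3 mo, and the high value of 38690 CPM in W at 12 mo (replicate 3). That W library was also high in miR-146a-5p (61460 CPM) and miR-146b-5p (13660 CPM), and the near-empty Ta library at 3 mo was high in miR-146b-5p (70550 CPM). The W library was low in miR-155-5p, at 0 CPM, as well.

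In deeper libraries, miR-21-5p stood out at 2603 CPM in replicate 1 of Cu at 1 mo, and miR-146a-5p at 16580 CPM in replicate 4 of W at 1 mo. miR-146b-5p stood out low at 1542 CPM in replicate 2 of Ni at 1 mo and at 3.858 CPM in replicate 4 of DU at 6 mo, and high at 8374 CPM in replicate 1 of Ta at 12 mo. miR-146a-5p was also high in that Ta library (14300 CPM) and was not low in that DU library (3894 CPM).

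For miR-155-5p the 7 libraries with a count at 3 mo each stood apart from 3 libraries at 0 in their group, at 1216 CPM in Fe, 126.5 in Ni, 105.1 in Cu, 104.7 in Al, 48.96 in DU, 40.07 in Pb and 51.57 in Ta. The same held at 6 mo for 43.79 CPM in Ni, 32.3 in Fe and 30.55 in Al. At 1 mo replicate 2 of Cu stood out at 26.24 CPM.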

How the results depend on the processing

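Of the values of single miRNAs under other settings, 187 kept their direction and their side of the threshold, 19 passed it, 13 lost it and 4 reversed. The counts of calls changed as follows. For a metal against Ta at 1 time point the count was 0, and 10 with DESeq2. For the averages it was 0, and 8 with DESeq2. For the mean of the metals it was 0, and 2 each with RLE size factors, without a filter and with DESeq2. For the change with time it was 0, and 2 with RLE size factors, 1 without a filter and 3 with DESeq2. Between time points it was 7, and 5 each with RLE size factors and without a filter, 8 each with DESeq2 and after thinning, 13 with DESeq2 without the near-empty libraries and 0 in Ta alone. Leaving out each library in turn gave 0 to 1, 0 to 0, 0 to 2, 0 to 1 and 6 to 8 calls in these 5 kinds of comparison. The sign reversed for miR-146a-5p in the mean of the metals at 3 mo without the near-empty libraries (0.4664), for miR-155-5p in that mean at 6 mo with the replicate block (0.613), and between 3 and 1 mo in Ta alone for miR-146b-5p (2.005) and miR-146a-5p (1.178). The causes were not tested, and the last pair was negative without the near-empty libraries (-1.133 and -2.16). Left out in turn, the values of the mean of the metals ran from -3.01 to 0.55 for miR-146a-5p at 3 mo and from -2.64 to 4.44 for miR-155-5p at 6 mo. Library totals alone, and RLE size factors, DESeq2 or library totals without the near-empty libraries, were chosen after seeing the data.

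Replicate numbers showed no pairing of the libraries by the correlations below, which cannot tell whether the same rats were sampled. Within time points, over 116 pairs of a metal library with one of Ta, the correlation of deviations from the group means ran from -0.289 to 0.55 (median 0.0253), with every pair over 0.1 in 2 of 31 comparisons. Over 132 pairs of 1 metal at 2 time points it ran from -0.233 to 0.369 (median -0.0137), with every pair over 0.1 in 1 of 34 comparisons. With the replicate block the count of time calls was again 7.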
